A study of Mus musculus with 43 samples.

Results

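The genes described here make leukotrienes, lipoxins and prostaglandins, the lipid mediators called eicosanoids, and were followed in mouse lungs after exposure to house dust mite (HDM), a common inhaled allergen. The set is 10 genes, Alox5, Alox5ap, Ltc4s, Lta4h, Alox15, Ptgs1, Ptgs2, Ptges, Hpgds and Ptgds, out of 24475 gene IDs in the count table, chosen by name from the enzymes of the pathway. The choice was made with earlier results of these data known. Each symbol matched 1 Entrez ID. Of the 10, 9 passed the filter on low counts that left 15598 genes for testing, and Ptgds did not. All mice were Il33hu/hu, with both alleles of the Il33 gene humanised, on a strain given as C57BL/6NTac (75%) / 129S6SvEvTac (25%). The 43 lung libraries fall into 7 from mice given saline, 10 after 4 weeks of HDM and 7 after 15 weeks of HDM, none of these with antibody, plus 2 antibody groups exposed to HDM for 15 weeks, 4 libraries given isotype control and 15 given an antibody against IL-33. IL-33 is an alarmin, a cytokine that damaged epithelial and other barrier cells set free. No time is given for the saline libraries, so HDM and elapsed time cannot be told apart in any comparison with saline.

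Eicosanoid synthesis starts when phospholipases free arachidonic acid from membranes. Arachidonate 5-lipoxygenase (Alox5), with its partner protein FLAP (Alox5ap), turns it into leukotriene A4, from which Lta4h makes leukotriene B4, a neutrophil attractant, and Ltc4s makes leukotriene C4, the parent of the cysteinyl leukotrienes that constrict airways. Alox15 makes 12- and 15-hydroxylated fatty acids and intermediates of lipoxins. The cyclooxygenases Ptgs1, largely constitutive, and Ptgs2, inducible, make prostaglandin H2, which Ptges converts to prostaglandin E2, and Hpgds and Ptgds convert to prostaglandin D2.

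The promoters of Ptgs1 and Ptges are shown because both genes rose with HDM and were called lower with anti-IL-33 than with the isotype. Lta4h did so too, by smaller amounts, and its promoter is not shown. Each run is the 250 bases before a RefSeq start on GRCm38.p6, 5′ to 3′ on the gene's own strand, and capitals mark matches to the motifs listed after them. Ptgs1 lies at chr2:36230176-36230425 on the plus strand and Ptges at chr2:30903298-30903547 on the minus strand. Both windows fall inside the annotated gene spans (36216742-36258593 and 30889471-30931020), so these starts are not the outermost ones. No GENCODE vM21 exon overlapped these windows or those of Alox5 and Lta4h. Annotated exons cover 178 bases of the Hpgds window, 84 of Ltc4s, 93 of Ptgds and 183 of Ptgs2 (from Ptgs2os, an antisense gene), and those windows are not shown.
Ptgs1: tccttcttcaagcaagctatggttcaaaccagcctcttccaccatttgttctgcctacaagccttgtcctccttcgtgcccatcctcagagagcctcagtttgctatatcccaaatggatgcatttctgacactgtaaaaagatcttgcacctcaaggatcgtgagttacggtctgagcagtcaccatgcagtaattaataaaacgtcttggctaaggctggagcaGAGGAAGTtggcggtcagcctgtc
Ptges: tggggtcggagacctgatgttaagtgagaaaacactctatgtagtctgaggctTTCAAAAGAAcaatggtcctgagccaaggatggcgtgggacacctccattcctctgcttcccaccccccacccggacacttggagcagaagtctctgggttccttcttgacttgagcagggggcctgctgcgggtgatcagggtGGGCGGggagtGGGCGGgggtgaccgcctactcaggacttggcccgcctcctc
The search covered TATAAA as the TATA box, CCAAT as the CCAAT box, GGGCGG as the GC box, CACGTG as the E-box, TGANTCA as an AP-1-type site, GAGGAAGT as a PU.1-type site, AGATAA as a GATA-type site, and 2 STAT-type sites in which TTC and GAA stand 3 bases (STAT-type) or 4 bases (STAT6-type) apart, on both strands, in the 8 members of 10 with an entry. Ptgs1 and Hpgds each held GAGGAAGT, starting 24 and 49 bases before the start, a match found in 2.44% of 32851 promoter windows of this length. Ptges held a STAT6-type match starting 197 bases before the start, present in 5.85% of all windows, and GGGCGG starting 53 and 42 bases before it, present in 32.7%. Ltc4s held no match to any of the 9 motifs. Alox5 and Ptgs2 each held 1 GGGCGG, Ptgds held 1 TGANTCA (6.75% of all windows), and Lta4h held CCAAT on both strands (33.9% of all windows). The Ptgs2 window had 13 CG pairs, Lta4h 11 and Ptges 8, against a median of 6 over all windows, while Ptgs1 and Alox5 had 5, Hpgds and Ltc4s 3 and Ptgds 2. The matches are letters in a window and were not tested for binding.

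Library totals ran from 4795214 to 12599467 counts. Sample numbers in the labels fall into 2 separate ranges, called number range 1 (22 libraries) and number range 2 (21 libraries), and each group has libraries in both. What the ranges stand for is not given, so they entered the fit as a term, and values within single ranges are given for some of the calls lost or gained there. The 10 lung identity markers summed to between 23347 and 64490 counts per mega-count of the scaled library (CPM) across the libraries. The libraries that stand apart in member genes are 15-week replicate 1 (highest Alox5, 55.9 CPM), 4-week replicate 3 (highest Ltc4s of its group, 20.4 CPM) and anti-IL-33 replicate 7 (highest Alox15 of its group, 76.3 CPM). They also stood apart in other genes. Of 10 lung identity markers, 15-week replicate 1 was the highest of its group for 6 and the lowest for 2 (Sftpb, 8561 CPM, others at most 3937). In 4-week replicate 3, 8 of the 10 were the highest of the group and 1 the lowest. In anti-IL-33 replicate 7, 4 were the lowest and none the highest. Whether quality or cell content set these libraries apart was not tested. Nothing in the labels says whether libraries of a group came from separate mice, so p-values measure the spread between libraries.

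Most of the tested members were higher after HDM. After 4 weeks 7 of the 9 tested members were higher than in saline and none lower, where 56.8% of all genes changed and 29.3% were higher. After 15 weeks 8 of 9 were higher and none lower, where 59.2% of all genes changed and 31.2% were higher. The median log2 fold change over the 9 was 1.06 at 4 weeks and 1.56 at 15 weeks, against 0.01 over all tested genes in both. Member CPM lay wholly above saline for 5 genes at 4 weeks and 6 at 15 weeks, against 9.99% and 14.7% of all genes. In bulk lung RNA, more cells of a type and more RNA per cell cannot be told apart.

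Ptgs1, Hpgds and Ptges were higher at 15 than at 4 weeks and Alox15 was lower, so 4 of 9 changed, where 21.4% of all genes did (12.3% higher and 9.08% lower). Ptgs1 was the single member whose CPM lay wholly above at the later time, as for 1.53% of genes. With anti-IL-33, Ptgs1, Ptges and Lta4h were lower than with the isotype and none was higher, 3 of 9 where 6.71% of genes changed and 3.14% were lower. Ptges was the single member that lay wholly below there (0.904% of genes). Against 15 weeks without antibody, Ptgs1, Ptges and Alox15 were lower and none was higher, where 35.8% of genes changed and 19.9% were lower, and no member was free of overlap (0.417% of genes). The isotype against no antibody gave 0 called members and 0 of 15598 genes by edgeR (0% called), with 933 genes at an unadjusted p under 0.05 and 8 called by DESeq2. Anti-IL-33 libraries still stood above saline for 7 of 9 members, where 38.6% of genes changed and 20.03% were higher. Of these 7, Ltc4s, Ptgs1 and Hpgds lay wholly above saline, as for 5.08% of genes.

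**Figure D1:**
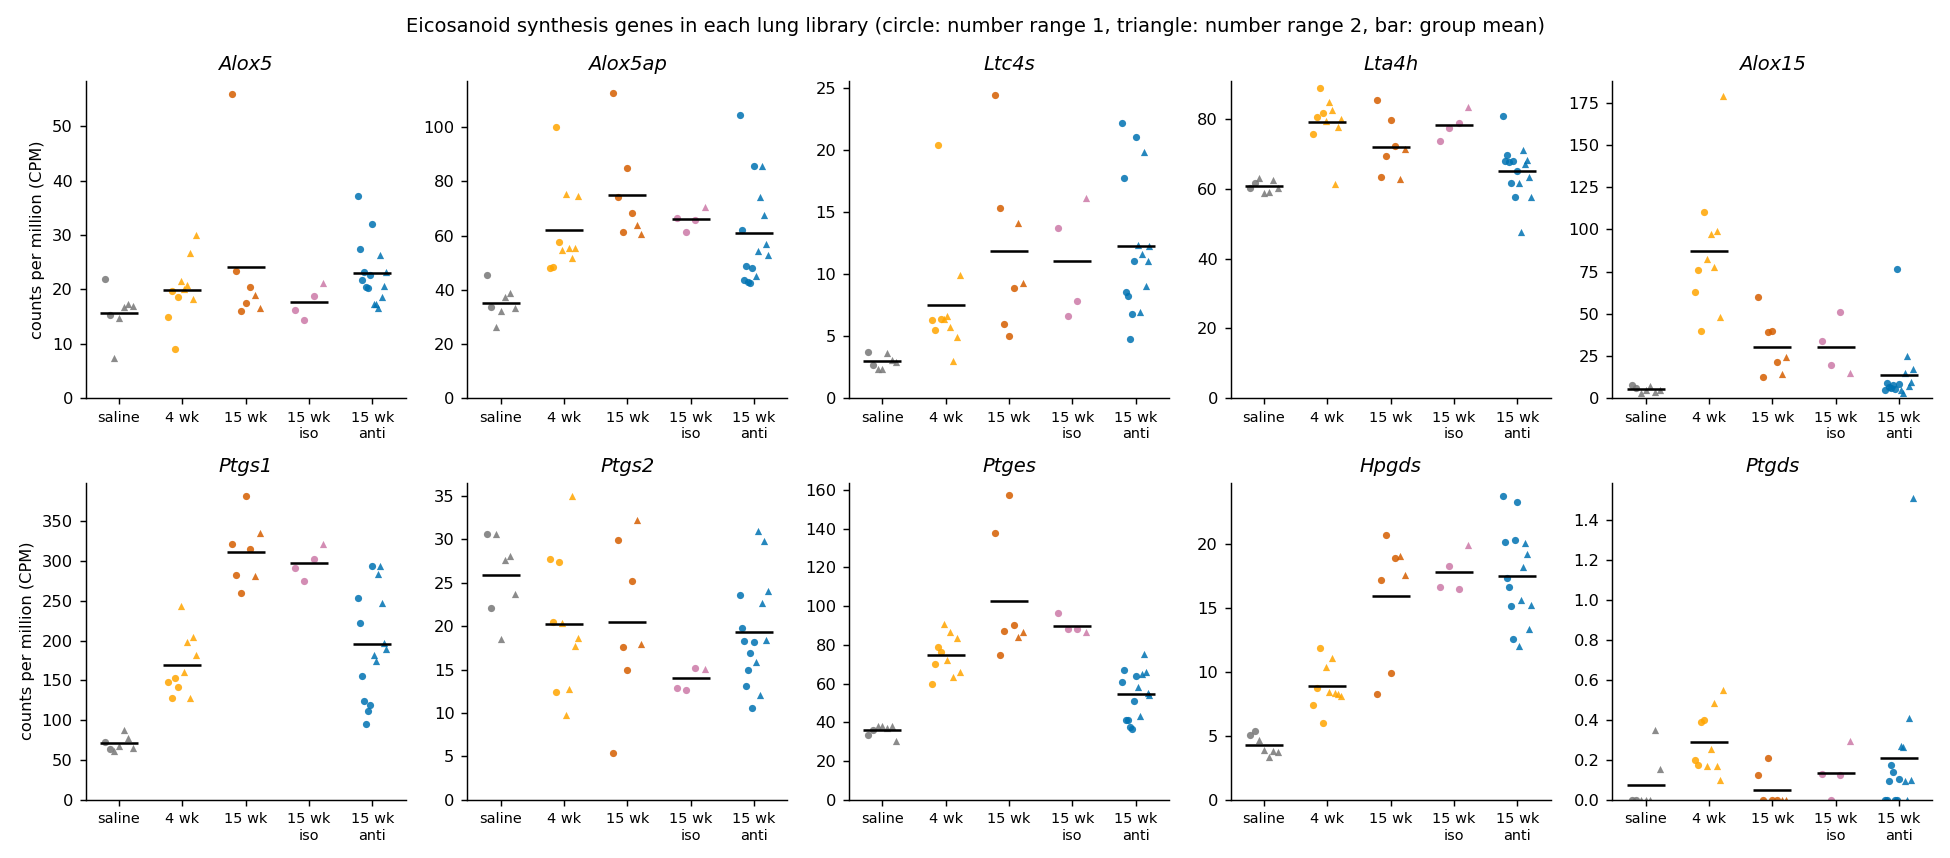
CPM of each of the 10 genes (y axes, linear, from 0, scaled per gene) in the 43 libraries of the 5 groups (x axes: saline, 4 weeks of HDM, 15 weeks of HDM, 15 weeks with isotype, 15 weeks with anti-IL-33), with circles for number range 1, triangles for number range 2 and bars at group means. Ptgs1 climbs from 70.9 in saline to 311 CPM at 15 weeks, and Alox15 is highest at 4 weeks (87.3 CPM).

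**Figure D2:**
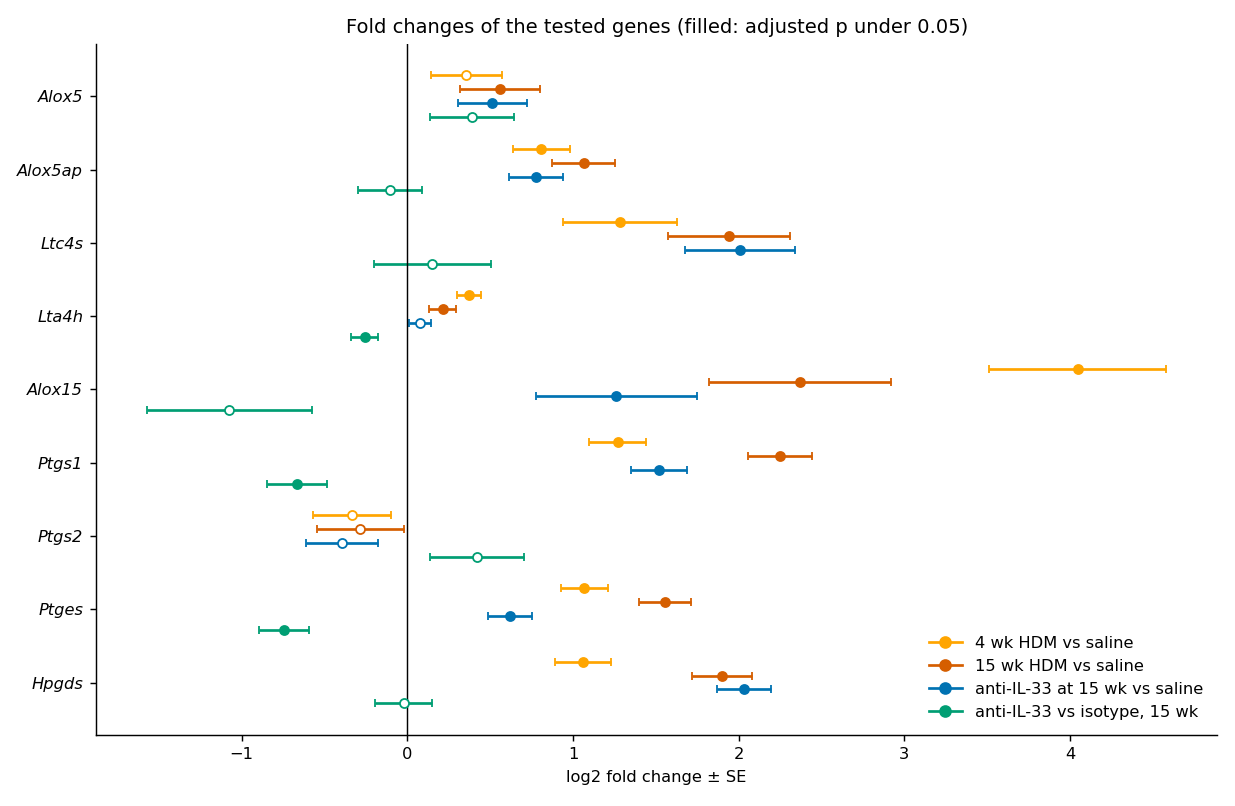
Log2 fold change with its SE (x axis) of the 9 tested genes (y axis) in 4 comparisons, coloured by comparison and filled where the edgeR adjusted p was under 0.05. Hpgds and Ltc4s lie near 0 against the isotype (-0.02 and 0.15), while Ptges (-0.74) and Ptgs1 (-0.67) lie below it.

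Per length, as counts per kilobase of exon within CPM (RPKM), saline lungs held most Alox5ap (24.8 ± 4.23 RPKM, SD, n = 7) and Ptgs1 (18.3 ± 2.37), which overlapped between libraries. Lta4h (9.96 ± 0.275) and Ptges (9.12 ± 0.781) came next, overlapped each other and lay below every Ptgs1 value. Ptgs2 (5.65 ± 1.01), Alox5 (3.83 ± 1.06), Ltc4s (2.91 ± 0.558) and Alox15 (2.17 ± 0.750) followed, with each overlapping its neighbour in that order, and Hpgds (0.666 ± 0.118) lay below all of them. Ptgds was lowest, at 0.0435 ± 0.0816 RPKM. At 4 weeks Alox15 had moved to the third place (35.6 ± 15.98 RPKM, n = 10), after Alox5ap (43.8 ± 11.6) and Ptgs1 (43.5 ± 9.66). At 15 weeks Ptgs1 led (80.1 ± 10.6 RPKM, n = 7), ahead of Alox5ap (52.9 ± 13.1), and Alox15 (12.3 ± 6.91), Lta4h (11.8 ± 1.34) and Ltc4s (11.7 ± 6.63) overlapped. In anti-IL-33 libraries Ptgs1 (50.5 ± 17.4 RPKM, n = 15) and Alox5ap (42.9 ± 13.3) came first, with Alox15 at 5.55 ± 7.44.

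In the 5-lipoxygenase branch, Ltc4s, the leukotriene C4 synthase, rose most. Ltc4s ran from 2.31 to 3.73 CPM in saline (median 2.93), from 2.99 to 20.4 at 4 weeks (median 6.32), from 5.03 to 24.4 at 15 weeks (median 9.30), and from 4.78 to 22.1 with anti-IL-33 (median 11.1). The 4 isotype libraries stood at 13.7, 6.59, 7.78 and 16.1 CPM. Every 15-week library and every anti-IL-33 library exceeded every saline library, and 9 of 10 libraries at 4 weeks did. The log2 fold change against saline was 1.28 ± 0.34 (SE) at 4 weeks (edgeR adjusted p = 0.00165) and 1.94 ± 0.37 at 15 weeks (edgeR adjusted p = 2.45e-05). Within number range 1 these were 1.57 (edgeR adjusted p = 0.144) and 1.89 (0.0581), and within range 2 they were 1.10 and 2.05, both called. Between 15 and 4 weeks Ltc4s differed by 0.66 ± 0.31, which was not called (edgeR adjusted p = 0.126). Without 4-week replicate 3 that difference was 0.97 (edgeR adjusted p = 0.018, range over 11 alternatives 0.018 to 0.725). Against the isotype anti-IL-33 gave 0.15 ± 0.35 (edgeR adjusted p = 0.805), and against saline 2.01 ± 0.33 (5.66e-06), a call lost within range 1 (1.95, 0.119).

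Alox5ap, which presents arachidonate to Alox5, ran from 26.3 to 45.3 CPM in saline (median 33.8), from 47.9 to 100.1 at 4 weeks (median 55.5), from 60.8 to 113 at 15 weeks (median 68.4), from 61.5 to 70.4 with the isotype, and from 42.5 to 104 with anti-IL-33 (median 54.2). All libraries at 4 and at 15 weeks exceeded all saline libraries, and 11 of 15 anti-IL-33 libraries did. The log2 fold changes against saline were 0.81 ± 0.17 at 4 weeks (edgeR adjusted p = 0.000135), 1.07 ± 0.19 at 15 weeks (9.79e-06) and 0.78 ± 0.16 with anti-IL-33 (0.000201). Within range 1, with 2 saline libraries, the 4-week value was 0.70 (edgeR adjusted p = 0.189) and the anti-IL-33 value 0.59 (0.38), neither called. Against the isotype the difference was -0.10 ± 0.19 (edgeR adjusted p = 0.742).

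Alox5, the 5-lipoxygenase itself, was called against saline at 15 weeks and not at 4 weeks. Its CPM ran from 7.29 to 21.9 in saline (median 16.7), from 8.94 to 29.9 at 4 weeks (median 19.9), from 16.01 to 55.9 at 15 weeks (median 18.9), from 14.3 to 21.1 with the isotype, and from 16.6 to 37.2 with anti-IL-33 (median 21.7). All groups overlapped saline. Its log2 fold change was 0.36 ± 0.22 at 4 weeks (edgeR adjusted p = 0.155) and 0.56 ± 0.24 at 15 weeks (0.0438). The 4-week value was called within number range 2 (0.66, edgeR adjusted p = 0.00493), not within range 1 (-0.23, 0.71), and was called without 15-week replicate 1 and 4-week replicate 3 (0.44, 0.0169). The 15-week call held in 4 of 10 alternatives (edgeR adjusted p from 0.0215 to 0.365). Without 15-week replicate 1 the 15-week value was 0.25 (edgeR adjusted p = 0.303). With anti-IL-33, Alox5 stood 0.51 ± 0.21 above saline (edgeR adjusted p = 0.0443), a call lost without the filter on low counts (0.52, 0.0512) and within range 1 (0.47, 0.59).

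Lta4h, which makes leukotriene B4, changed by the smallest amounts of the called members. It ran from 58.7 to 63.1 CPM in saline (median 60.3), from 61.3 to 88.8 at 4 weeks (median 80.3), from 62.9 to 85.3 at 15 weeks (median 71.4), from 73.7 to 83.4 with the isotype, and from 47.5 to 80.8 with anti-IL-33 (median 67.0). The log2 fold change against saline was 0.37 ± 0.07 at 4 weeks (edgeR adjusted p = 4.91e-05) and 0.21 ± 0.08 at 15 weeks (0.0234). Against the isotype anti-IL-33 gave -0.26 ± 0.08 (edgeR adjusted p = 0.0489), and this call held in 4 of 14 alternatives (adjusted p 0.00976 to 0.756). The 15-week difference was 0.02 on library totals without TMM scaling (edgeR adjusted p = 0.814), 0.29 (0.13) and 0.16 (0.322) within ranges 1 and 2, and 0.22 (0.0653) with only the 2 groups fitted, none of them called.

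The ratio of Ltc4s to Lta4h sets the 2 enzymes that compete for leukotriene A4 side by side within each library. Its log2 value, on CPM + 0.5, was -4.17 ± 0.249 (SD, n = 7) in saline, -3.47 ± 0.572 (n = 10) at 4 weeks and -2.72 ± 0.776 (n = 7) at 15 weeks. It differed from saline by 0.69 at 4 weeks (exact two-sided permutation p = 0.00113, BH adjusted over 12 ratio tests 0.00271) and by 1.45 at 15 weeks (exact p = 0.00175, adjusted 0.0035). The 4- and 15-week groups each overlapped saline. Anti-IL-33 libraries stood at -2.48 ± 0.571 (n = 15) and isotype libraries at -2.86 ± 0.583 (n = 4), a difference of 0.38 (exact permutation p = 0.254, adjusted 0.278). Within number ranges the differences from saline were 0.83 and 0.57 at 4 weeks and 1.25 and 1.71 at 15 weeks, and these could not be tested in 3 of the 4 cases: with 2 libraries in 1 group the smallest exact p is 0.133 (4 weeks, range 1) or 0.0952 (15 weeks, both ranges). For 4 weeks in range 2 the exact permutation p was 0.00866 (adjusted 0.0519).

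Alox15, the 12/15-lipoxygenase, had the widest span over the groups, 3.93 on the log2 scale. It ran from 3.18 to 7.86 CPM in saline (median 5.01), from 39.8 to 179 at 4 weeks (median 80.0), from 12.4 to 59.8 at 15 weeks (median 24.3), and from 2.73 to 76.3 with anti-IL-33 (median 7.52). The isotype libraries stood at 33.9, 19.8, 51.3 and 15.0 CPM. No library at 4 or 15 weeks overlapped saline, and 6 of 7 libraries at 15 weeks lay below every 4-week library. The log2 fold change against saline was 4.05 ± 0.53 at 4 weeks (edgeR adjusted p = 1e-07) and 2.37 ± 0.55 at 15 weeks (0.000381), which was not called within range 1 (2.31, 0.0972). From 4 to 15 weeks Alox15 fell by 1.68 ± 0.48 on the log2 scale (edgeR adjusted p = 0.011). Within ranges 1 and 2 that fall was -1.06 and -2.35, and neither was called (edgeR adjusted p = 0.33 and 0.0909, against a span of 0.00324 to 0.33 over 11 alternatives).

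With anti-IL-33, 12 of 15 libraries held less Alox15 than every isotype library, and replicate 7, at 76.3 CPM, held more than all of them. The log2 difference from the isotype was -1.07 ± 0.50 (edgeR adjusted p = 0.154). Without replicate 7, where the other 14 libraries ran from 2.73 to 24.6 CPM, it was -1.74 ± 0.39 (edgeR adjusted p = 0.00919, range over 14 alternatives 0.00919 to 0.906). Within ranges 1 and 2 it was -1.22 and -0.38. Against 15 weeks without antibody the difference was -1.11 ± 0.42 (edgeR adjusted p = 0.0359), and without 15-week replicate 1 it was -0.90 (0.125, range over 11 alternatives 0.000301 to 0.625). Alox15 stood 1.26 ± 0.48 above saline (edgeR adjusted p = 0.0361), and 0.82 (0.073, range over 10 alternatives 0.0129 to 0.625) without replicate 7. Replicate 7 was also the highest of its group for 1 of 8 eosinophil markers (Il5ra, 12.3 CPM, others 1.46 to 11.01), with Epx at 0 and Siglecf at 12.8 (others 8.08 to 23.4), for 4 of 11 mast cell markers (Cpa3, 13.5 CPM, others at most 6.53) and for 3 of 10 fibroblast and mesothelial markers (Dcn, 603 CPM, others at most 204). Of 10 alveolar macrophage markers 1 was the highest there (Fabp4, 658 CPM, others at most 160) and 2 were the lowest (Car4 and Krt19). Hdc of the mast cell list and Pdgfrb of the fibroblast and mesothelial list were the lowest of the group. So were 4 of 10 lung identity and 4 of 10 endothelial markers. The part of these cells in its Alox15 level was not tested, and Ptgs2 was the lowest of the group (10.5 CPM).

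Ptgs1, the constitutive cyclooxygenase, rose at both times. It ran from 61.3 to 87.3 CPM in saline (median 67.7), from 128 to 244 at 4 weeks (median 157), from 260 to 382 at 15 weeks (median 315), and from 95.7 to 294 with anti-IL-33 (median 190). The isotype libraries held 291, 274, 302 and 322 CPM. The 3 groups without antibody did not overlap each other, and 12 of 15 anti-IL-33 libraries lay below every isotype library. Against saline the log2 fold change was 1.27 ± 0.17 at 4 weeks (edgeR adjusted p = 1.29e-07), 2.25 ± 0.19 at 15 weeks (1.18e-11) and 0.98 ± 0.17 for 15 against 4 weeks (0.000101). Within ranges 1 and 2 the 15-week value was 2.19 and 2.11. Against the isotype Ptgs1 was lower by -0.67 ± 0.18 (edgeR adjusted p = 0.0273), and against no antibody by -0.73 ± 0.15 (0.000578). Within range 2 the difference between the times was 0.73 (edgeR adjusted p = 0.112) and that from no antibody -0.47 (0.41), neither called. Within ranges the difference from the isotype was -0.75 (edgeR adjusted p = 0.11) and -0.54 (0.78), and it was not called without isotype replicate 1 (0.116) or replicate 3 (0.125), with a span of 0.00902 to 0.78 over 14 alternatives. Anti-IL-33 libraries all exceeded all saline libraries, by 1.52 ± 0.17 on average (edgeR adjusted p = 3.82e-09).

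Ptgs2, the inducible cyclooxygenase, was not called in any of the 7 comparisons. Its CPM ran from 18.5 to 30.7 in saline (median 27.6), from 9.78 to 35.1 at 4 weeks (median 19.5), from 5.39 to 32.2 at 15 weeks (median 17.9), and from 10.5 to 31.02 with anti-IL-33 (median 18.3). The isotype libraries stood at 12.9, 12.7, 15.2 and 15.1 CPM. The log2 fold changes against saline were -0.33 ± 0.23 at 4 weeks (edgeR adjusted p = 0.223), -0.28 ± 0.26 at 15 weeks (0.353) and -0.39 ± 0.22 with anti-IL-33 (0.152). At 15 weeks it was -0.51 within range 1 and -0.01 within range 2, and no call was gained in either.

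The log2 ratio of Ptgs2 to Ptgs1 was -1.45 ± 0.276 (SD, n = 7) in saline, -3.10 ± 0.733 (n = 10) at 4 weeks, -4.05 ± 0.926 (n = 7) at 15 weeks, -4.36 ± 0.0703 (n = 4) with the isotype and -3.29 ± 0.527 (n = 15) with anti-IL-33. Against saline it fell by 1.65 at 4 weeks (exact two-sided permutation p = 0.000103, the smallest this design can give, adjusted 0.00123) and by 2.61 at 15 weeks (exact p = 0.000583, again the smallest, adjusted 0.00175). No library overlapped saline at either time. Within number ranges 1 and 2 the differences were -1.36 and -1.86 at 4 weeks and -2.84 and -2.17 at 15 weeks. The same limits on the exact p apply. For 4 weeks in range 2 the exact permutation p was 0.00433, the smallest that 6 against 5 libraries allow (adjusted 0.0519). Between 15 and 4 weeks it differed by -0.96 (exact p = 0.0315, adjusted 0.042), a call lost on pseudocount 0.1 (exact permutation p = 0.0337, adjusted 0.0506). It was -1.48 within range 1 (exact p = 0.0317, adjusted 0.127), -0.31 within range 2 (exact p = 0.786) and -0.72 without 15-week replicate 1 and 4-week replicate 3 (exact p = 0.0691, adjusted 0.083). With anti-IL-33 the ratio was higher than with the isotype by 1.08 (exact permutation p = 0.00258, adjusted 0.00442), at 1.13 within range 1 (adjusted 0.0952) and 1.01 within range 2, where 1 isotype library allows no exact p under 0.25. Ptgs1 was called in each of these comparisons and Ptgs2 in none.

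**Figure D3:**
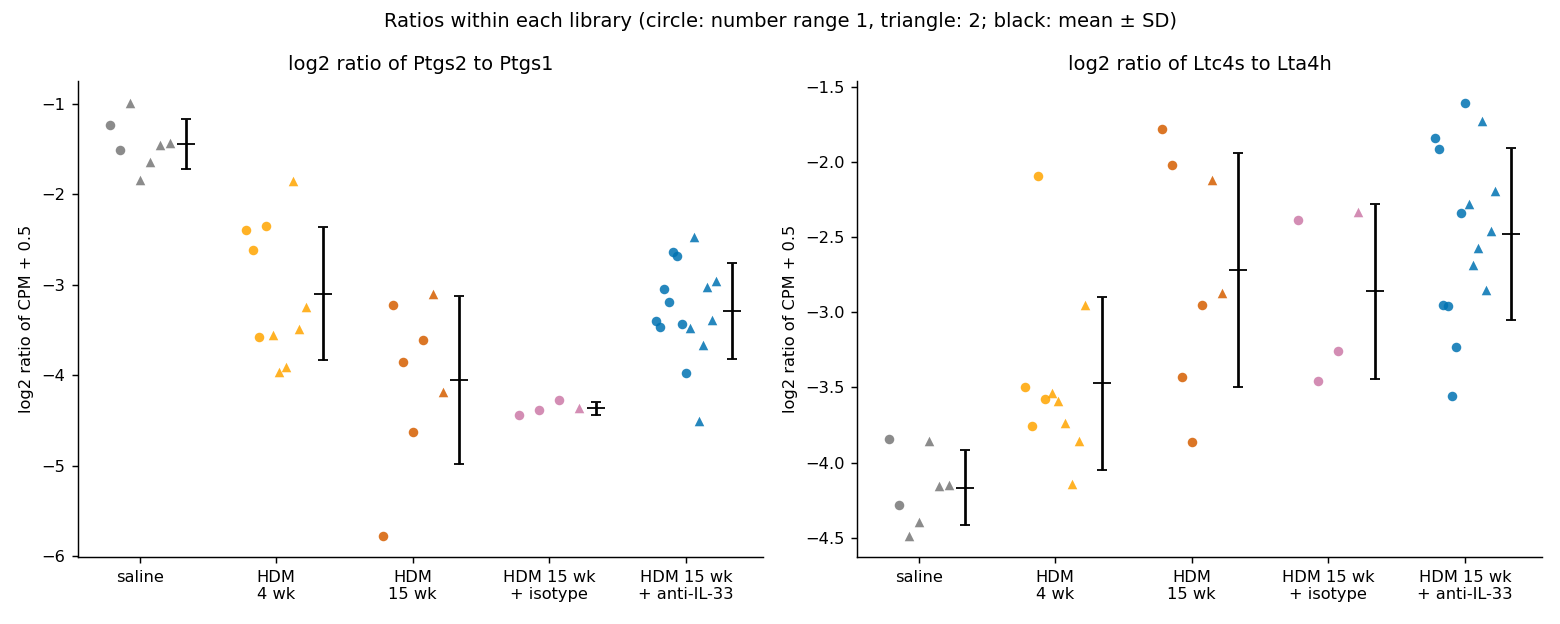
Log2 ratios of Ptgs2 to Ptgs1 and of Ltc4s to Lta4h (y axes, on CPM + 0.5) per library in the 5 groups (x axes), with circles for number range 1, triangles for number range 2, and mean ± SD in black. Saline lies highest for Ptgs2 to Ptgs1 (mean -1.45) and lowest for Ltc4s to Lta4h (mean -4.17).

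Ptges, which makes prostaglandin E2, rose with HDM and was lower with anti-IL-33. It ran from 30.2 to 38.3 CPM in saline (median 36.96), from 59.8 to 90.7 at 4 weeks (median 74.2), from 74.9 to 157 at 15 weeks (median 87.0), and from 36.5 to 75.3 with anti-IL-33 (median 55.2). The isotype libraries stood at 96.3, 87.9, 88.4 and 86.6 CPM, above all 15 anti-IL-33 libraries. The log2 fold change against saline was 1.07 ± 0.14 at 4 weeks (edgeR adjusted p = 8.22e-08), 1.56 ± 0.16 at 15 weeks (2.71e-10) and 0.62 ± 0.13 with anti-IL-33 (0.000251). The last of these was not called within range 1 (0.53, edgeR adjusted p = 0.293). From 4 to 15 weeks Ptges differed by 0.49 ± 0.14 (edgeR adjusted p = 0.0104), and by 0.61 (0.0748) and 0.15 (0.746) within ranges 1 and 2, with 0.00591 to 0.746 over 11 alternatives. Against the isotype it was lower by -0.74 ± 0.15 (edgeR adjusted p = 0.00495), at -0.87 (0.0348) within range 1 and -0.55 (0.756) within range 2, with 0.000834 to 0.756 over 14 alternatives. Against no antibody it was lower by -0.94 ± 0.12 (edgeR adjusted p = 6.88e-06; within range 2 -0.53, 0.265), and 14 of 15 anti-IL-33 libraries lay below every library without antibody.

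Hpgds, the haematopoietic prostaglandin D2 synthase, rose with HDM, and no difference between anti-IL-33 and the isotype was called. It ran from 3.37 to 5.39 CPM in saline (median 3.88), from 5.99 to 11.9 at 4 weeks (median 8.40), from 8.27 to 20.8 at 15 weeks (median 17.6), and from 12.03 to 23.8 with anti-IL-33 (median 17.4). The isotype libraries stood at 16.6, 18.3, 16.5 and 19.9 CPM. No HDM library, with or without antibody, overlapped saline. The log2 fold change against saline was 1.06 ± 0.17 at 4 weeks (edgeR adjusted p = 1.83e-06), 1.90 ± 0.18 at 15 weeks (1.27e-10) and 2.03 ± 0.16 with anti-IL-33 (4.35e-12). Between 15 and 4 weeks it was 0.83 ± 0.16 higher (edgeR adjusted p = 0.000287). Within range 1 the 4-week value was 0.72 (edgeR adjusted p = 0.155) and the difference between the times 0.81 (0.0502), neither called. Against the isotype the difference was -0.02 ± 0.17 (edgeR adjusted p = 0.946), at 0.12 and -0.31 within ranges 1 and 2.

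Ptgds, the brain-type prostaglandin D2 synthase, was near the detection limit. Libraries held 0 to 20 counts, and 5 of 7 saline, 5 of 7 15-week, 1 of 4 isotype and 5 of 15 anti-IL-33 libraries held 0. At 4 weeks none did, and counts ran from 1 to 6. The log2 ratio of Hpgds to Ptgds, which rests on the pseudocount where Ptgds is 0, was 3.08 ± 0.439 (SD, n = 7) in saline, 3.57 ± 0.368 (n = 10) at 4 weeks and 4.86 ± 0.560 (n = 7) at 15 weeks. It differed from saline by 0.50 at 4 weeks (exact two-sided permutation p = 0.027, adjusted 0.0406) and by 1.78 at 15 weeks (exact p = 0.000583, adjusted 0.00175). On a pseudocount of 0.1 the 4-week difference was -0.33 (exact permutation p = 0.416, adjusted 0.454).

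Around the synthesis genes, 65 other genes of arachidonate release, other lipoxygenases, prostanoid enzymes, leukotriene conversion, breakdown and receptors are in the table, and 57 were tested. At 4 weeks 26 of the 57 were higher and 13 lower than saline (56.8% of all genes changed, 29.3% higher), and at 15 weeks 25 and 11 (59.2% and 31.2%). With anti-IL-33 17 were higher and 8 lower than saline (38.6% and 20.03%), and against the isotype 2 were higher and 5 lower (6.71% changed). Hpgd, which inactivates prostaglandins, fell from 504 ± 67.5 CPM (SD, n = 7) in saline to 167 ± 51.8 (n = 10) at 4 weeks and 81.2 ± 48.3 (n = 7) at 15 weeks (log2 fold change -2.67 ± 0.37, edgeR adjusted p = 1.15e-07). With anti-IL-33 Hpgd stood at 184 ± 87.5 CPM (n = 15), higher than without antibody by 1.18 ± 0.31 (edgeR adjusted p = 0.00412). Against the isotype the difference of 0.92 ± 0.39 was not called (edgeR adjusted p = 0.116).

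Of the arachidonate-releasing phospholipases, 8 of 12 tested were higher at each time and none was lower, where 29.3% and 31.2% of all genes were higher. Pla2g2d, a secreted phospholipase, rose by 2.71 ± 0.32 at 4 weeks and 2.87 ± 0.34 at 15 weeks (edgeR adjusted p = 8.07e-09 and 6e-09). Tbxas1, thromboxane synthase, rose from 13.3 ± 3.10 CPM (SD, n = 7) to 63.3 ± 14.5 (n = 7) at 15 weeks (2.26 ± 0.24, edgeR adjusted p = 6.72e-10), while Alox12, the platelet-type lipoxygenase, fell by 1.53 ± 0.21 (6.99e-08).

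Receptors moved both ways, with 7 of 14 tested higher and 4 lower at 4 weeks, where 56.8% of all genes changed and 29.3% were higher. Ptgdr, a prostaglandin D2 receptor, stood at 0.167 ± 0.171 CPM (SD, n = 7) in saline and 4.39 ± 0.848 (n = 10) at 4 weeks (4.59 ± 0.52, edgeR adjusted p = 4.02e-09), and anti-IL-33 was lower than the isotype by -2.30 ± 0.41 (0.00109). Ltb4r1, the leukotriene B4 receptor, was lower with anti-IL-33 than with the isotype by -1.14 ± 0.24 (edgeR adjusted p = 0.00541), at 2.43 ± 0.625 against 5.70 ± 2.35 CPM. Ptgfr, the prostaglandin F2-alpha receptor, fell by 2.37 ± 0.30 at 15 weeks (edgeR adjusted p = 2.92e-08) and was higher with anti-IL-33 than with the isotype by 1.58 ± 0.34 (0.00701).

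**Figure D4:**
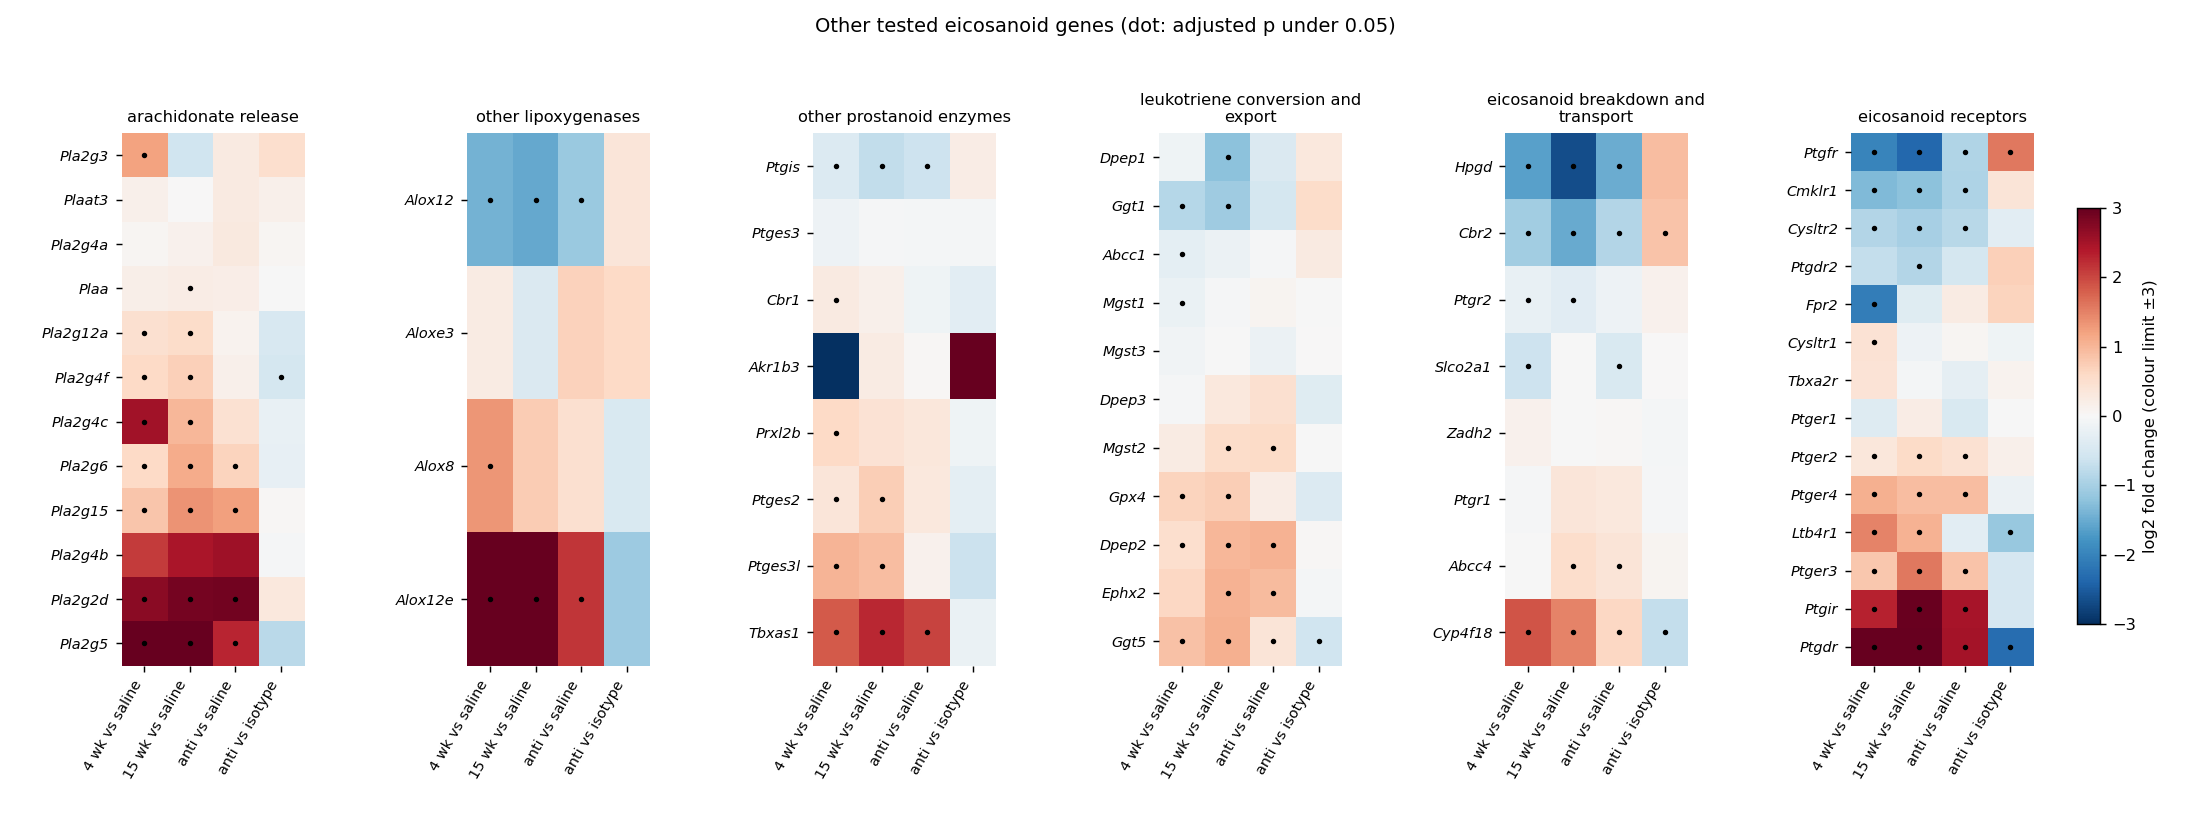
Log2 fold changes (colour, limited to 3 either way) of the 57 other tested eicosanoid genes (rows, 6 lists) in 4 comparisons (columns), with dots where the edgeR adjusted p was under 0.05. Hpgd (-2.67 at 15 weeks) and Ptgfr (-2.37) are blue against saline, and Ptgdr and Ptgir red.

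Marker genes of other cells were followed beside the members, and the lists went in different directions. The 10 alternatively activated macrophage markers summed to a median of 598 CPM in saline (502 to 2876), 20405 at 4 weeks (10287 to 31871), 15810 at 15 weeks (9493 to 20471), 15460 with the isotype (12723 to 27634) and 9197 with anti-IL-33 (1498 to 24328). All 10 were higher at 4 weeks (29.3% of all genes were), 9 at 15 weeks (31.2%), and 4 were lower with anti-IL-33 than with the isotype (3.14%). Of the 10 alveolar macrophage markers 6 were higher and 2 lower at 4 weeks, 6 and 1 at 15 weeks, and none was called against the isotype. Chil3 and Mrc1 are in both macrophage lists, so the lists are not independent. Chil3 weighs heavily in the sums. Its median was 11453 CPM at 4 weeks outside replicate 3, and 8020 CPM with anti-IL-33 outside replicate 7.

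Neutrophil markers were mixed at 4 weeks, mostly higher at 15 weeks and mostly lower with anti-IL-33. Of the 9 tested, 3 were higher and 2 lower at 4 weeks (median log2 fold change -0.12), where 29.3% of all genes were higher. At 15 weeks 8 were higher and none lower (31.2% of all genes were higher). With anti-IL-33 6 were lower than with the isotype (3.14% of all genes), with a median log2 fold change of -0.82 over the 9, against 0.01 over all genes. Against no antibody 7 were lower (19.9% of all genes). Their summed level ran from 147 to 294 CPM in saline, 185 to 479 at 4 weeks, 276 to 640 at 15 weeks, 327 to 378 with the isotype and 122 to 283 with anti-IL-33.

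Eosinophil marker sums and single markers differed. The 8 markers had median sums of 69.03 CPM in saline, 71.6 at 4 weeks and 46.9 at 15 weeks, while of 7 tested 4 were higher and 2 lower at 4 weeks (median log2 fold change 1.26) and 3 and 2 at 15 weeks (0.27). Epx was at 0 in all saline libraries. The 11 mast cell markers had median sums of 398, 394 and 367 CPM in the same groups, with Tpsab1 at 0 in saline. At 4 weeks, outside replicate 3, the medians of Kit, Hdc and Gata2 were 166, 148 and 52.3 CPM. Those of Cpa3 and Cma1 were 2.98 and 2.15 CPM, so the sum says little about the low markers. Of 10 tested mast cell markers 3 were higher and 2 lower at each time. Their median log2 fold change was 0.63 at 4 weeks and 0.37 at 15 weeks. For both lists, 56.8% of all genes changed and 29.3% were higher at 4 weeks, and 59.2% and 31.2% at 15 weeks. Of the 8 tuft cell markers measured, 5 were too low to test, with Pou2f3 at 0.587 CPM or less on average in every group, and Il25 and Hmx2 at 0 in saline.

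Other lists held mostly lower markers at 15 weeks. Platelet and megakaryocyte markers had median sums of 79.7 CPM in saline, 32.01 at 4 weeks and 23.2 at 15 weeks, with 8 of 10 lower at each time. At 15 weeks 8 of 10 fibroblast and mesothelial, 7 of 10 endothelial and 9 of 10 cardiac muscle markers were lower. At 4 weeks 6, 5 and 2 of 10 were lower in the same order. Of the fibroblast and mesothelial markers 1 was higher at each time, and no endothelial or cardiac muscle marker was. Of all genes, 56.8% changed and 29.3% were higher at 4 weeks, and 59.2% changed and 31.2% were higher at 15 weeks. The part of any of these cells in the members' values was not tested.

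The group means most like those of 3 members were found by root mean square distance of centred log2 CPM over the 5 groups, among the 13310 genes whose mean reached 2 CPM. For Alox15 they were Cd209e (distance 0.157), Mmp13 (0.222) and Tmem213 (0.265). For Ptgs1 they were Hkdc1 (0.0455), Cela1 (0.0588) and Pkdcc (0.0780), and Hkdc1 ran from 8.96 CPM in saline to 38.1 at 15 weeks and 22.2 with anti-IL-33. For Hpgds they were Pik3r5 (0.125), Fcgr4 (0.138) and Tlr13 (0.170), and Pik3r5 stood at 27.1, 95.5 and 99.9 CPM in the same groups. These distances are over 5 group means and carry no test.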

How the data were processed

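Lung RNA was sequenced with a stranded mRNA kit, per the labels' protocols, and the build was GRCm38, per the submitters' processing notes. The aligner, counter, annotation, strand setting and filters were not given in the sources used here. What the authors deposited is 1 table of whole-number raw counts, without normalization, for 24475 Entrez IDs in 43 libraries. A gene was matched to 24375 IDs, and the other 100, with 2.62% of all counts, stayed in the library totals. No column was left unused, and no 2 libraries held identical counts (903 pairs).

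Counts were scaled by TMM and filtered with filterByExpr in edgeR 4.0.16 (R 4.3.3), which left 15598 genes. All 43 libraries entered 1 robust quasi-likelihood fit with a term per group and a term for the number range, and 7 comparisons were contrasts in it. A gene was called when its p, adjusted by Benjamini-Hochberg (BH) over all tested genes, was under 0.05. The SE is the log2 fold change over the square root of the F statistic. CPM are per TMM-scaled library, and RPKM divide them by the exon length of GENCODE vM21. Log2 ratios used a pseudocount of 0.5 CPM and exact two-sided permutation tests over libraries, with BH adjustment over 12 tests (Python 3.11.15). The fit was also run on simulated counts in which few genes were changed and the number ranges did not differ. Many genes changed against saline here, so the simulated setting differs from these data. Nothing about the fit is concluded from it. Total counts of 4795214 to 12599467 limit the precision for Ltc4s, Hpgds and Ptgds, the lowest members.

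The labels give no pairing of libraries. All members are reported in each comparison, and from each of 6 lists of other eicosanoid genes at most the 3 called genes with the smallest p were eligible to be named. The members and lists were chosen with earlier results of these data known. The rule for the most alike genes took the 3 members with the widest span of group means. Alternatives were RLE size factors, library totals, no filter, DESeq2 1.42.0, no range term, only the 2 groups compared, each range alone, leaving out libraries that stand apart, each isotype library left out, and a pseudocount of 0.1. Leaving out anti-IL-33 replicate 7, 15-week replicate 1 or 4-week replicate 3 alone was chosen after seeing the data. On the opposite strand, exons of unnamed antisense or predicted genes overlap 189 exon bases of Alox5ap, 268 of Ltc4s and 148 of Ptgs1, so their reads may not be told apart. Promoter windows and gene starts come from RefSeq (GRCm38.p6), which holds no entry here for Alox15 and Alox5ap.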

Additional observations from a re-analysis of the deposited data

Results flagged for a closer look

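In 5 of 40 sets of values (10 genes in the 4 groups of 4 to 10 libraries) the highest or lowest library lay far from its nearest neighbour, by a gap over Dixon's 95% critical share of the group's range. Chance gives about 1 in 20 such sets. Alox15 at 4 weeks was 179 CPM in replicate 10, against 110 in the next library. Alox5 at 15 weeks was 55.9 CPM in replicate 1, against 23.4 in the next. In 4-week replicate 3, Alox5ap was 100.1 CPM against 75.3 in the next library, and Ltc4s was 20.4 against 9.91. Lta4h in 4-week replicate 8 was the lowest at 61.3 CPM, with 75.8 in the next. These values include 15-week replicate 1 and 4-week replicate 3, which also stood apart in lung identity markers. The causes were not tested.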

How the results depend on the processing

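No paired analysis was possible because the labels give no pairing of libraries. No called member value reversed, and of 720 member values 661 stayed on their side of the threshold, 54 lost a call and 5 gained one. Counts of all genes called moved by over 1.5 times as follows. Against the isotype, anti-IL-33 (1047 genes) gave 1704 by DESeq2, 687 without a filter, 4153 with only the 2 groups, 4639 without 15-week replicate 1 and 4-week replicate 3, 297 in number range 1 and 1 in range 2, and 58 to 935 with 1 isotype library left out. Isotype against no antibody (0) gave 8 by DESeq2, 3 on library totals, 7 without a filter, 4 without the range term, 1 in range 2, 1 without the 2 libraries that stand apart and 0 to 11 with 1 isotype library left out. For 15 against 4 weeks (3334) it was 1206 with only the 2 groups, 1406 in range 1 and 149 in range 2. In range 1 the count was 4194 for 15 weeks and 2308 for 4 weeks against saline, 3560 for anti-IL-33 against no antibody and 578 against saline, and in range 2 it was 4 for anti-IL-33 against no antibody. With 1 library left out, anti-IL-33 against no antibody gave 3459 (15-week replicate 1) to 5191 (anti-IL-33 replicate 7).

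Members called fell in range 1 to 4 at 4 weeks, 4 at 15 weeks, 1 between the 2 times, 1 against the isotype and 2 for anti-IL-33 against saline, and in range 2 to 1 for 15 against 4 weeks, 0 against isotype and 0 against no antibody. Against the isotype 1 to 2 members were called with 1 isotype library left out, and 3 without anti-IL-33 replicate 7. In range 2 a lone isotype library is assumed to vary like the other groups. Fewer libraries enter each range.

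Log2 ratios lost their call, or reversed, within ranges that hold few libraries, where groups of 2 or fewer allow no exact p under 0.05. Larger groups allow a smaller exact permutation p. It is 0.0159 for 15 against 4 weeks and 0.0121 for anti-IL-33 against isotype in range 1. For 4 weeks against saline in range 2 it is 0.00433. Some calls lost there had an exact p under 0.05 before BH adjustment. Ptgs2 to Ptgs1 was -1.36 and -1.86 (4 weeks against saline, ranges 1 and 2), -2.84 and -2.17 (15 weeks), -1.48 and -0.31 (15 against 4 weeks) and 1.13 and 1.01 (anti-IL-33 against isotype). Hpgds to Ptgds was -0.031 and 0.73, 1.19 and 2.33, and 1.22 and 1.60 in the first 3 of these. Ltc4s to Lta4h was 0.83 and 0.57, 1.25 and 1.71, and 0.42 and 1.14. With a pseudocount of 0.1, Hpgds to Ptgds at 4 weeks reversed to -0.33, and for 15 against 4 weeks Ptgs2 to Ptgs1 was -0.96 and Ltc4s to Lta4h 0.78, both no longer called. Without the 2 libraries that stand apart, Ptgs2 to Ptgs1 for 15 against 4 weeks was -0.72 and Hpgds to Ptgds at 4 weeks 0.47, neither called. The cause was not tested.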
